A study of Mus musculus with 10 samples.

Results

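The 9 genes described here encode proteins of blood clotting and of plasminogen activation: *F3*, *F5*, *F7*, *F10*, *F13a1*, *Tfpi*, *Thbd*, *Plau* and *Plaur*. They were taken by symbol from a table of 17001 genes, and all 9 had a row. They were compared across 3 macrophage populations sorted from the hindlimb muscle of mice 4 weeks old: 3 libraries of monocyte-derived macrophages (MDMs) and 4 of gal-3+ macrophages, all from mdx mice (C57BL/10ScSn-Dmdmdx/J), which lack dystrophin through a mutation of *Dmd*, and 3 libraries of skeletal muscle resident macrophages (SkMRMs) from WT C57BL/10 mice. MDMs were sorted as CD52+ cells with low gal-3 and no Folr2, gal-3+ macrophages as cells with high gal-3 and low Folr2, and SkMRMs as Folr2+ cells. None of these sorting proteins is encoded by the 9 genes. SkMRMs came only from WT mice, so that population and genotype cannot be told apart against SkMRMs, whereas MDMs and gal-3+ macrophages share the mdx genotype.

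Clotting starts when tissue factor (*F3*) on a cell surface binds factor VIIa (*F7*), and the pair activates factor X (*F10*). Factor Xa with its cofactor factor Va (*F5*) turns prothrombin into thrombin, thrombin turns fibrinogen into fibrin, and factor XIII (A subunit *F13a1*) cross-links the fibrin strands. Tissue factor pathway inhibitor (*Tfpi*) blocks the first steps, and thrombomodulin (*Thbd*) diverts thrombin to the activation of protein C. Urokinase (*Plau*), held on the cell by its receptor (*Plaur*), cuts plasminogen to plasmin, which dissolves fibrin. The liver makes most plasma clotting factors, and macrophages are known as a source of factor XIII A, tissue factor and urokinase.

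Promoter sequences were available for 7 of the 9 genes (RefSeq, GRCm38.p6), and *Plau* and *Thbd* had no entry. Those of 4 genes are shown, each the 250 bases before the start site, because *F7* and *F10* are neighbors on the same strand that were both near 0 in SkMRMs, and because *F3* and *Plaur* are the 2 members with the AP-1 letters TGANTCA. They lie at chr8:13025784-13026033 (*F7*), chr8:13037058-13037307 (*F10*), chr3:121723287-121723536 (*F3*) and chr7:24462233-24462482 (*Plaur*), all on the plus strand. Capitals mark matches on either strand to TGANTCA (AP-1), GAGGAA (the PU.1 and ETS core), TTGCNNAA (C/EBP) and GGGCGG (the SP1 GC box). The 3 GC boxes of *Plaur* lie end to end, and the last 2 of them share a base.
F7: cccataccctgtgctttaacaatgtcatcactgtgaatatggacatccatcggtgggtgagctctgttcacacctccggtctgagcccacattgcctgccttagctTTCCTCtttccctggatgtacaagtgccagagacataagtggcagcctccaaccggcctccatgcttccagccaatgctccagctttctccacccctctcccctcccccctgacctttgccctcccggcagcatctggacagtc
F10: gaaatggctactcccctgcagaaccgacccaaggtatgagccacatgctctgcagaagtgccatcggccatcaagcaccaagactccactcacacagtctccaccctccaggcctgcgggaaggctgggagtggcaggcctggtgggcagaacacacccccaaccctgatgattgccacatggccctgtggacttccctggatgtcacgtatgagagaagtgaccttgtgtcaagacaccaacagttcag
F3: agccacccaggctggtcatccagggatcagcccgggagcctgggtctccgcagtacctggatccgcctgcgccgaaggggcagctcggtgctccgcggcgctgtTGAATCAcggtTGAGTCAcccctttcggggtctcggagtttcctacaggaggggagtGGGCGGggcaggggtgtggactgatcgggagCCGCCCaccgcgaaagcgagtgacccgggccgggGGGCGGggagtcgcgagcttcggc
Plaur: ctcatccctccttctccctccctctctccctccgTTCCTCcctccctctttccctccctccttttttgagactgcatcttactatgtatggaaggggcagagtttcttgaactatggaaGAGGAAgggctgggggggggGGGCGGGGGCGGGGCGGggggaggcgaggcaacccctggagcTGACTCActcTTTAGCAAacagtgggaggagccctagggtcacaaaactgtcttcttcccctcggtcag
Of 32851 mouse promoters of the same length, 6.75% held TGANTCA, 23.3% held GAGGAA, 9.56% held TTGCNNAA and 32.7% held GGGCGG. *F3* held TGANTCA at 146 and again at 135 bases before its start, and *Plaur* held it at 69 bases, next to its C/EBP letters at 59 bases. *F7* held 1 GAGGAA match, and *F10* held none of the letters searched, a search that also took in the letters TGACGTCA of the CRE. The TATA box, searched as TATAAA, was found in *Tfpi* among the 7 members. The MAF recognition letters TGCTGAC were found in 0 of them. GAGGAA was found in 4 of the 7 members with a promoter (*F7*, *F13a1*, *Plaur* and a second start of *Tfpi*), and GGGCGG in 4 (*F3*, *F5*, *Plaur* and *Tfpi*). A member counted if any of its windows held the letters, and *Tfpi* and *F13a1* had a second window. The shares of all promoters are per window, so that the member counts are not on the same footing. These matches describe letters in the window and are not binding sites.

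The libraries held 22395027 to 75907638 reads, the deepest being the SkMRM library WT3. Values are normalized counts, in which the reads of a gene were scaled to a common depth. All 10 listed macrophage markers had reads, with summed normalized counts of 411548 to 474176 in MDMs, 411858 to 506318 in gal-3+ macrophages and 264587 to 279939 in SkMRMs. The 9 genes together took 0.209 to 0.265% of the reads in MDMs, 0.128 to 0.146% in gal-3+ macrophages and 0.486 to 0.511% in SkMRMs. In bulk samples, a change in the number of cells that express a gene and a change in RNA per cell cannot be told apart.

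Each gene was tested with limma on log2(normalized count + 1), with Benjamini-Hochberg adjustment of p over all 17001 genes, and counted as changed where it differed 2-fold or more with an adjusted p below 0.01. Since the labels do not say which libraries share a mouse, p-values measure the spread between these libraries. In MDMs over SkMRMs, 4 of the 9 genes rose (*F10*, *F7*, *F5* and *Plaur*) and 2 fell (*F13a1* and *Tfpi*), where 26.8% of all genes changed (8.81% rose and 18.0% fell). In gal-3+ macrophages over SkMRMs, 3 rose (*F7*, *F10* and *Plaur*) and 1 fell (*F13a1*), where 17.3% of all genes changed (5.34% rose and 11.9% fell). These comparisons share their SkMRM libraries. In MDMs over gal-3+ macrophages, *F5* and *F10* rose and 0 fell, where 11.5% of all genes changed (3.32% rose and 8.19% fell). At an unadjusted p under 0.05, 5 members were higher and 1 was lower in that last comparison (24.3% and 23.9% of all genes). The same threshold gave 5 higher and 3 lower in MDMs over SkMRMs (28.2% and 33.5% of all genes) and 4 higher and 3 lower in gal-3+ macrophages over SkMRMs (25.5% and 29.7%). For MDMs over gal-3+ macrophages, edgeR and DESeq2 on recovered reads also counted 2 as higher and 0 as lower. The libraries of the populations did not overlap for 8 of the 9 genes in MDMs over SkMRMs (64.4% of all genes), for 7 in gal-3+ macrophages over SkMRMs (52.2%) and for 5 in MDMs over gal-3+ macrophages (42.4%). The median log2 fold change of the members was 0.66 in MDMs over SkMRMs, where the median of all genes was -0.17, and it was 0.24 in gal-3+ macrophages over SkMRMs, where all genes had -0.11. It was 0.41 in MDMs over gal-3+ macrophages, where all genes had 0.03.

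**Figure D1:**
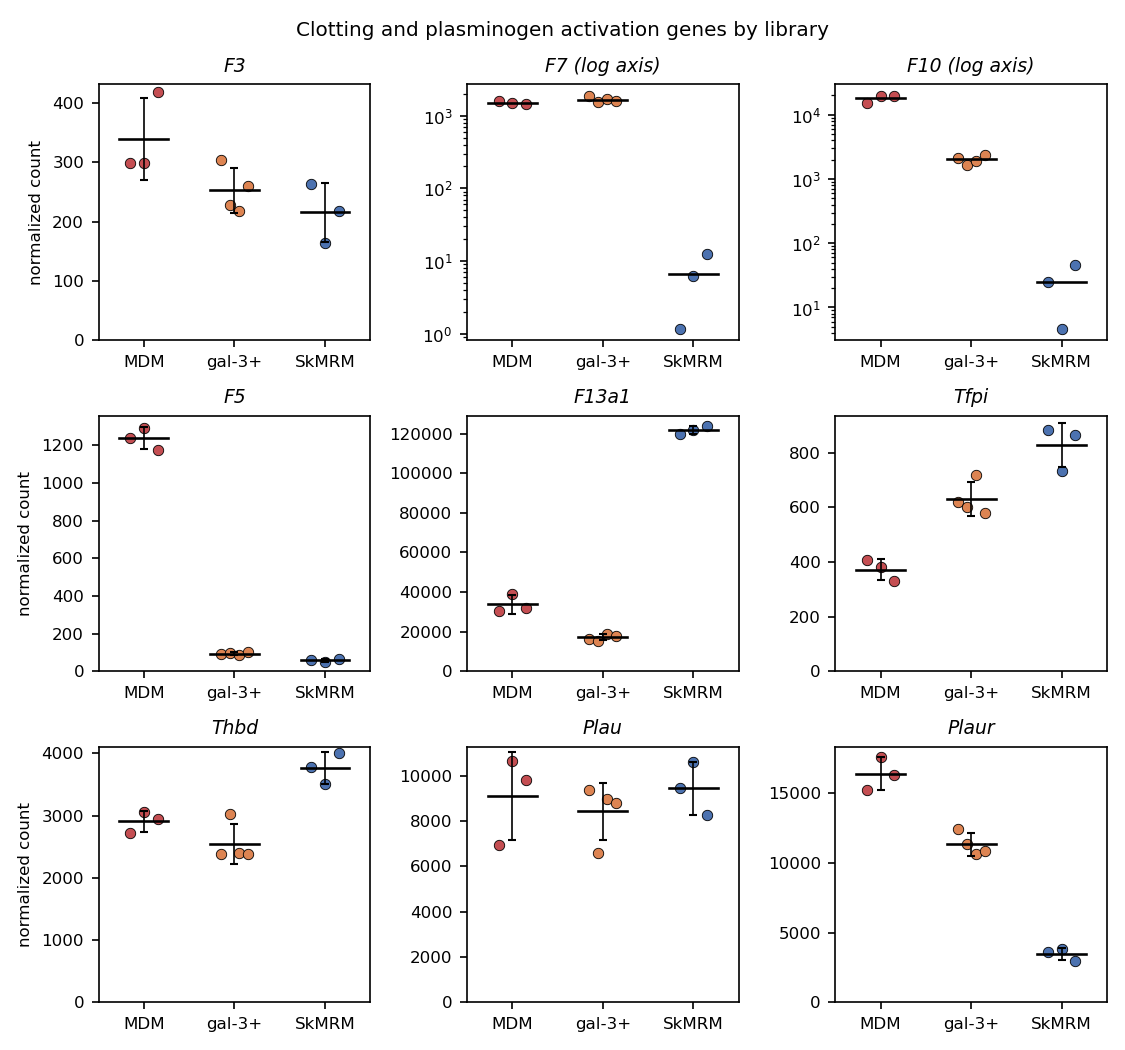
Normalized count of the 9 genes in each library of MDMs (3), gal-3+ macrophages (4) and SkMRMs (3), with the mean as a line and the SD as a bar (no bar on the log axes of *F7* and *F10*). *F7* and *F10* stood at or below 46.6 in SkMRMs and at or above 1462 in MDMs and gal-3+ macrophages, *F5* was 1178 to 1295 in MDMs, *F13a1* was 119733 to 123632 in SkMRMs, and the *Plau* values of the populations overlapped.

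No difference in the initiator of clotting passed the test, and the mean of its partner factor VII was more than 200-fold higher in both mdx populations than in SkMRMs. Tissue factor (*F3*, chr3:121723537-121735048, plus strand, 7 exon blocks) had 299, 299 and 418 normalized counts in MDMs, 303, 228, 219 and 260.3 in gal-3+ macrophages and 264, 165 and 218 in SkMRMs. All 3 MDM libraries were above the SkMRM libraries, whereas gal-3+ macrophages overlapped both. The log2 fold change was 0.66 (SE 0.23, adjusted p = 0.019) in MDMs over SkMRMs, 0.24 (SE 0.21, adjusted p = 0.35) in gal-3+ macrophages over SkMRMs and 0.41 (SE 0.21, adjusted p = 0.13) in MDMs over gal-3+ macrophages. None of these passed the test, with 95% intervals of 0.18 to 1.13, -0.20 to 0.69 and -0.03 to 0.86.

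Factor VII (*F7*, chr8:13026034-13035809, plus strand, 8 exon blocks), the vitamin K-dependent protease that tissue factor activates, had 1581, 1477 and 1462 normalized counts in MDMs and 1857, 1528, 1683 and 1588 in gal-3+ macrophages. In SkMRMs it had 1.17, 6.21 and 12.6, which were 1, 8 and 35 reads. Every library of the mdx populations was thus at least 100-fold above every SkMRM library. *F7* rose by a log2 fold change of 8.12 (SE 0.39, adjusted p = 2.6e-11) in gal-3+ macrophages over SkMRMs, rank 4 of 17001 genes, and by 7.98 (SE 0.42, adjusted p = 5.2e-11) in MDMs over SkMRMs, rank 14. The MDM and gal-3+ libraries overlapped, and the log2 fold change of MDMs over gal-3+ macrophages was -0.14 (SE 0.39, adjusted p = 0.8), with a 95% interval of -0.97 to 0.69. The width of that interval includes the scatter of the few SkMRM reads, and a fit of the 2 mdx populations alone gave the same difference with an SE of 0.088 and an adjusted p of 0.23. The SkMRM counts were low, and the log2 fold change of *F7* over SkMRMs moved with the pseudocount and with single SkMRM libraries. It was 7.28 in gal-3+ macrophages and 7.14 in MDMs with a pseudocount of 5, 7.39 and 7.25 without WT1, and 8.71 and 8.57 without WT3. Over 19 alternatives its rank ran from 3 to 10 in gal-3+ macrophages and from 13 to 27 in MDMs.

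Factor X and its cofactor factor V were both highest in MDMs. *F10* (chr8:13037308-13056676, plus strand, 9 exon blocks), the vitamin K-dependent protease that makes thrombin, had 14975, 19497 and 19414 normalized counts in MDMs, 2138, 1632, 1899 and 2381 in gal-3+ macrophages and 24.5, 4.66 and 46.6 in SkMRMs. The SkMRM values stood for 21, 6 and 129 reads. The 3 populations formed 3 separate levels, with MDMs 8.92-fold above gal-3+ macrophages in the mean. Its log2 fold change of 9.87 (SE 0.47, adjusted p = 1.6e-11) in MDMs over SkMRMs was the highest of all 17001 genes, a fold set against the few SkMRM reads. Over 19 alternatives its rank ran from 1 to 7, and the log2 fold change was lowest without the SkMRM library WT2 (9.0) and highest without WT3 (10.5). It rose by 6.71 (SE 0.44, adjusted p = 1.5e-09) in gal-3+ macrophages over SkMRMs, rank 10, and by 3.16 (SE 0.44, adjusted p = 2.7e-05) in MDMs over gal-3+ macrophages, rank 90. In gal-3+ macrophages over SkMRMs the rank ran from 8 to 35, with 5.84 without WT2 and 7.38 without WT3. The gene starts 1498 bases after the end of *F7*, and *Proz* follows 4237 bases after its own end, all on the same strand.

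*F10* and *F7* did not keep 1 ratio between the mdx populations. With 1 added to each normalized count, as in all ratios here, *F7* had 0.106, 0.0758 and 0.0753 times the normalized count of *F10* in MDMs and 0.869, 0.936, 0.886 and 0.667 times in gal-3+ macrophages, and these values did not overlap (difference of the log2 ratios -3.30, exact permutation p = 0.0571, adjusted p = 0.114 over 18 ratio tests). In SkMRMs the ratio took 0.085, 1.27 and 0.287, from too few reads to place it. With 3 libraries against 4 the exact test cannot go below 0.0571, and with 3 against 3 not below 0.1, so that no ratio test here could pass 0.05.

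*F5* (chr1:164151838-164220277, plus strand, 25 exon blocks), the non-enzymatic cofactor of factor Xa, had 1241, 1295 and 1178 normalized counts in MDMs, 90.2, 100.03, 87.2 and 101 in gal-3+ macrophages and 63, 51.3 and 63.9 in SkMRMs. The MDM libraries stood more than 10-fold above all others. The rise was 3.70 (SE 0.2, adjusted p = 9.1e-10) in MDMs over gal-3+ macrophages, rank 38 of 17001, and 4.36 (SE 0.22, adjusted p = 3.0e-11) in MDMs over SkMRMs, rank 119. The lowest gal-3+ library was also above the highest SkMRM library, but at 0.67 (SE 0.2, adjusted p = 0.012) the difference did not pass the test. An antisense lincRNA and a pseudogene overlap *F5* in the annotation, and a strand setting for the counting is not given in the sources used here.

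Neutrophil markers differed among themselves in their order. Of 10 listed 8 had a row, and their sums were 5085 to 5783 normalized counts in MDMs, 3369 to 4071 in gal-3+ macrophages and 526 to 811 in SkMRMs. Of the 8, 3 rose in MDMs over SkMRMs (*S100a8*, *Csf3r* and *Mmp8*), 2 in gal-3+ macrophages over SkMRMs (*Csf3r* and *Mmp8*) and 2 in MDMs over gal-3+ macrophages (*S100a8* and *Mmp8*). Most of the sum was *Csf3r*, with a mean of 3855 in MDMs, 3238 in gal-3+ macrophages and 434 in SkMRMs, and the next largest part in MDMs and gal-3+ macrophages was *Mmp8*, with 1329, 355 and 1.68 in the same order. The other 5 passed no test, and *Ngp* (13.5, 14.8 and 74.6) and *Ltf* (13.6, 14.7 and 35) had their highest means in SkMRMs. The median log2 fold change of the 8 was 0.91 in MDMs over SkMRMs, -0.23 in gal-3+ macrophages over SkMRMs and 1.11 in MDMs over gal-3+ macrophages. The sums of 10 muscle fiber and satellite cell markers were 1651 to 2009.6 in MDMs, 5493 to 7774 in gal-3+ macrophages and 9862 to 15617 in SkMRMs, with *Acta1* the most abundant. The satellite cell markers differed among themselves. *Myf5* (47.4, 82 and 42.5) and *Myod1* (85.6, 224 and 137) had their highest means in gal-3+ macrophages, and *Pax7* (138, 276 and 433) had its highest in SkMRMs. The part of these cells in the *F10* and *F5* values was not tested.

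*F13a1* was the most abundant member in SkMRMs and fell in both mdx populations. Its product is the transglutaminase that cross-links fibrin, and the gene (chr13:36867178-37050244, minus strand, 18 exon blocks) overlaps 2 antisense genes. It had 30435, 39112 and 31935 normalized counts in MDMs, 16559, 15292, 18891 and 18068 in gal-3+ macrophages and 119733, 121863 and 123632 in SkMRMs. The 3 populations formed 3 separate levels. SkMRM libraries were 7.08-fold above gal-3+ macrophages and 3.6-fold above MDMs in the mean, and *F13a1* took 0.086 to 0.111% of all reads in MDMs, 0.0486 to 0.0591% in gal-3+ macrophages and 0.422 to 0.451% in SkMRMs. The log2 fold change was -2.83 (SE 0.092, adjusted p = 2.0e-13) in gal-3+ macrophages over SkMRMs and -1.86 (SE 0.098, adjusted p = 6.1e-11) in MDMs over SkMRMs. MDMs exceeded gal-3+ macrophages by 0.97 (SE 0.092, adjusted p = 4.7e-07), just under the fold of 2 needed, and leaving out the gal-3+ library mdx4, the MDM library mdx1 or the MDM library mdx5 took it over that line, at 1.02, 1.04 and 1.01.

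Fibroblast markers, listed together with those of fibro/adipogenic progenitors (FAPs), also summed highest in SkMRMs. All 12 had reads, and their summed normalized counts were 86172 to 97079.8 in MDMs, 69217 to 98503 in gal-3+ macrophages and 575676 to 1376730 in SkMRMs, and 5 of the 12 fell in gal-3+ macrophages over SkMRMs, and 3 fell and 1 rose in MDMs over SkMRMs. In SkMRMs most of the sum was *Col1a1*, with a mean of 25949 in MDMs, 28391 in gal-3+ macrophages and 549888 in SkMRMs, and *Col1a2*, with 16151, 16699.8 and 303570 in the same order. *Dcn*, with 1198, 904 and 10340, also fell in both comparisons with SkMRMs, and *Lum* and *Dpt* fell in gal-3+ macrophages over SkMRMs. Other members did not follow the sum, such as *Gsn* with 12144, 10845 and 11924, and *Pi16*, the one that rose in MDMs, with 678, 128 and 132. The sums of 8 tenocyte markers were 2821 to 3452, 3099.8 to 5186 and 53734 to 101770 in MDMs, gal-3+ macrophages and SkMRMs. Among the SkMRM libraries WT1 to WT3 the fibroblast sum was 1376730, 805387 and 575676, and *F13a1* was 119733, 121863 and 123632. The part of these cells in the *F13a1* of SkMRMs was not tested. Of 11 platelet and megakaryocyte markers, which would come with platelet *F13a1* and *F5*, 5 had a row, and their sums were 129 to 177 in MDMs, 160.1 to 208 in gal-3+ macrophages and 133 to 289 in SkMRMs. Among these 5, *Ppbp* rose over SkMRMs, with a mean of 107 in MDMs, 136 in gal-3+ macrophages and 42.2 in SkMRMs, and *Itga2b* fell, with 32.9, 29.5 and 139.9. The other 6 markers had no row, and the part of platelets in the *F13a1* and *F5* values was not tested. Of 8 hepatocyte markers 1 had a row, *Apoa1*, at 6.38 to 15.3 in MDMs, 0.777 to 2.67 in gal-3+ macrophages and 11.7 to 28.2 in SkMRMs.

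**Figure D2:**
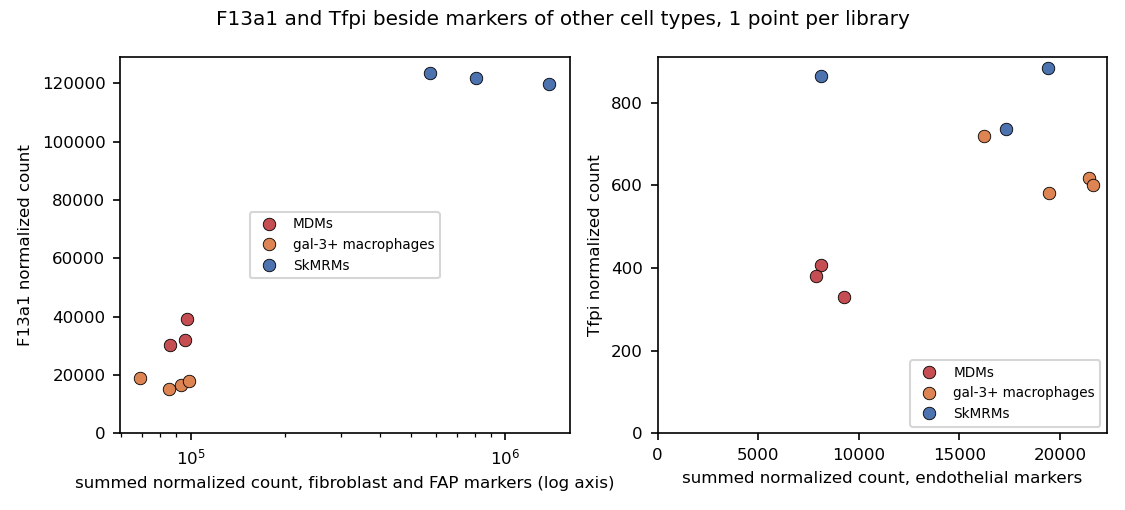
*F13a1* against the summed normalized counts of fibroblast and FAP markers (left, log axis) and *Tfpi* against those of endothelial markers (right), with 1 point per library. In the SkMRM libraries *F13a1* was 119733 to 123632 and the fibroblast marker sum 575676 to 1376730, and the SkMRM library WT3 had 864 normalized counts of *Tfpi* at an endothelial sum within the range of MDMs, whose *Tfpi* was 329.9 to 406.

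Both inhibitors of clotting were highest in SkMRMs. *Tfpi* (chr2:84432855-84476775, minus strand, 12 exon blocks), which blocks the tissue factor and factor VIIa complex together with factor Xa, had 406, 381 and 329.9 normalized counts in MDMs, 619, 601, 720.3 and 581 in gal-3+ macrophages and 883, 735 and 864 in SkMRMs. The 3 populations formed 3 separate levels with MDMs the lowest. It fell, with a log2 fold change of -1.15 (SE 0.14, adjusted p = 2.1e-06), in MDMs over SkMRMs. The differences of -0.39 (SE 0.13, adjusted p = 0.02) in gal-3+ macrophages over SkMRMs and of -0.76 (SE 0.13, adjusted p = 2.1e-04) in MDMs over gal-3+ macrophages did not reach a fold of 2. Endothelial cells are a known source of *Tfpi* and *Thbd*, and all 12 endothelial markers had reads, with sums of 7887 to 9266 in MDMs, 16229.7 to 21651 in gal-3+ macrophages and 8116 to 19429 in SkMRMs. In MDMs over gal-3+ macrophages 8 of the 12 fell, and in MDMs over SkMRMs 4 fell, and their part in the lower *Tfpi* of MDMs was not tested. The SkMRM library WT3 had the lowest endothelial sum of its population, 8116, within the range of MDMs, and 864 normalized counts of *Tfpi*, above every MDM library.

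Thrombomodulin (*Thbd*, chr2:148404466-148408188, minus strand, 1 exon) had 2726, 3057 and 2938 normalized counts in MDMs, 2379.8, 3018, 2396 and 2387 in gal-3+ macrophages and 3784, 3503 and 4011 in SkMRMs. Every library of the mdx populations was below every SkMRM library, and the gal-3+ library mdx3 stood above the other 3 of its population. The log2 fold change was -0.57 (SE 0.093, adjusted p = 8.1e-05) in gal-3+ macrophages over SkMRMs and -0.37 (SE 0.099, adjusted p = 0.004) in MDMs over SkMRMs, both under a fold of 2. For MDMs over gal-3+ macrophages it was 0.20 (SE 0.093, adjusted p = 0.1), with a 95% interval of 0.00 to 0.39.

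The ratio of the initiator to its inhibitor was ordered by population. *F3* had 0.736, 0.783 and 1.27 times the normalized count of *Tfpi* in MDMs, 0.491, 0.38, 0.304 and 0.449 times in gal-3+ macrophages and 0.299, 0.225 and 0.253 times in SkMRMs. No library of a population overlapped another population, with differences of the log2 ratio of 1.81 in MDMs over SkMRMs (exact permutation p = 0.1, adjusted p = 0.129), 0.64 in gal-3+ macrophages over SkMRMs (exact permutation p = 0.0571, adjusted p = 0.114) and 1.17 in MDMs over gal-3+ macrophages (exact permutation p = 0.0571, adjusted p = 0.114). The gal-3+ library mdx4 (0.304) and the SkMRM library WT1 (0.299) nearly met, with 213 and 226 reads of *F3*, a gap that counting error can cover. *F3* over *Thbd* was higher in both mdx populations than in SkMRMs, by 1.03 in MDMs and 0.81 in gal-3+ macrophages without overlap, and the mdx populations overlapped. Its nearest libraries were also close, at 0.0759 in the gal-3+ library mdx3 and 0.0699 in the SkMRM library WT1. These are ratios of reads, not of protein, and are not corrected for gene length.

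The urokinase receptor rose in both mdx populations while urokinase itself did not differ beyond its spread. *Plaur* (chr7:24462484-24475968, plus strand, 6 exon blocks), the membrane-anchored receptor, had 15244, 17601 and 16288 normalized counts in MDMs, 12458, 11344, 10620.1 and 10851 in gal-3+ macrophages and 3621, 3814 and 2985 in SkMRMs. The 3 populations formed 3 separate levels with MDMs the highest. The rise was 2.24 (SE 0.094, adjusted p = 3.1e-12) in MDMs over SkMRMs and 1.71 (SE 0.088, adjusted p = 6.6e-11) in gal-3+ macrophages over SkMRMs. MDMs were above gal-3+ macrophages by 0.53 (SE 0.088, adjusted p = 1.5e-04), under a fold of 2.

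*Plau* (chr14:20836660-20843385, plus strand, 11 exon blocks), the protease that the receptor binds, had 6932, 10639 and 9797 normalized counts in MDMs, 9362, 6586, 8969 and 8796 in gal-3+ macrophages and 9442, 10621 and 8281 in SkMRMs. The libraries of the 3 populations overlapped. Its log2 fold change was -0.07 (SE 0.15, adjusted p = 0.72) in MDMs over SkMRMs, -0.17 (SE 0.14, adjusted p = 0.32) in gal-3+ macrophages over SkMRMs and 0.10 (SE 0.14, adjusted p = 0.58) in MDMs over gal-3+ macrophages. The 95% intervals, -0.38 to 0.24, -0.46 to 0.12 and -0.19 to 0.40, all lie within a fold of 2.

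The ratio of urokinase to its receptor differed between the mdx populations and SkMRMs. *Plau* had 0.455, 0.604 and 0.602 times the normalized count of *Plaur* in MDMs and 0.752, 0.581, 0.845 and 0.811 times in gal-3+ macrophages, against 2.61, 2.78 and 2.77 times in SkMRMs. The ratio was below 1 in all 7 mdx libraries and above 2 in all 3 SkMRM libraries, with a log2 difference of -2.31 in MDMs over SkMRMs (exact permutation p = 0.1, adjusted p = 0.129) and -1.88 in gal-3+ macrophages over SkMRMs (exact permutation p = 0.0571, adjusted p = 0.114). The mdx populations overlapped, with a difference of -0.43. Immediate early genes, which rise with stress of the cells during isolation and include AP-1 subunits, moved between the populations too. Their 18 members summed to 333250 to 369659 normalized counts in MDMs, 452188 to 474538 in gal-3+ macrophages and 579695 to 649361 in SkMRMs. Over SkMRMs 9 of them fell and 2 rose in MDMs, and 5 fell and 2 rose in gal-3+ macrophages. The 2 that rose, as *Plaur* did, were *Fosl2* and *Nr4a1*, with means of 31499 and 30356 in MDMs, 26901 and 22640.4 in gal-3+ macrophages and 9194 and 3284 in SkMRMs. The part of these 18 genes in the *Plaur* and *F3* values was not tested.

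**Figure D3:**
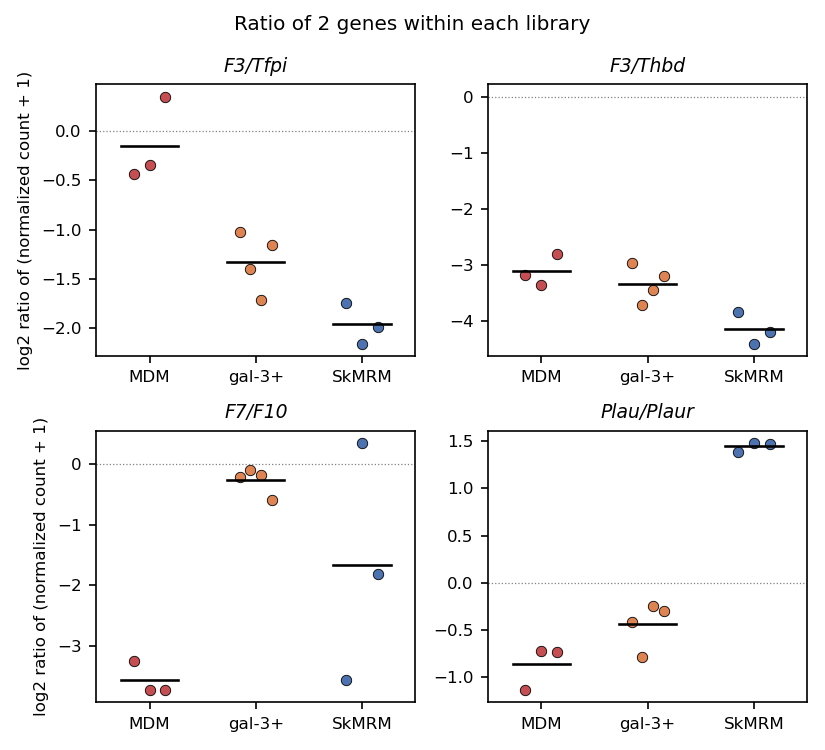
Log2 ratio of (normalized count + 1) of 2 genes within each library, with the population mean as a line and 0 as a dotted line. *F3*/*Tfpi* was ordered MDMs, gal-3+ macrophages and SkMRMs from high to low, *Plau*/*Plaur* was below 0 in all MDM and gal-3+ libraries and above 0 in all SkMRM libraries, and *F7*/*F10* was lower in MDMs than in gal-3+ macrophages (difference -3.30).

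Levels can be compared between genes only per length, here as normalized counts per kilobase of exon. In MDMs the order was *F10* (6577 ± 947, SD, n = 3), *Plaur* (6258 ± 451), *F13a1* (5019.6 ± 688), *Plau* (3854 ± 821), *F7* (811 ± 34.9), *Thbd* (781 ± 45), *F5* (167 ± 7.9), *F3* (134 ± 27.3) and *Tfpi* (68.2 ± 7.13). Neighbors in this order whose means lay closer than the sum of their SDs were *F10* and *Plaur*, *F13a1* and *Plau*, *F7* and *Thbd*, and *F5* and *F3*. In gal-3+ macrophages *Plaur* (4325 ± 312, SD, n = 4) and *Plau* (3561 ± 529) led, followed by *F13a1* (2553 ± 237), *F7* (895 ± 77.2), *F10* (737 ± 117), *Thbd* (684 ± 84.7), *Tfpi* (115 ± 11.3), *F3* (99.9 ± 15.1) and *F5* (12.7 ± 0.951). *Plaur* and *Plau*, *F7* and *F10*, *F10* and *Thbd*, and *Tfpi* and *F3* were within the sum of their SDs there. In SkMRMs *F13a1* (18065 ± 289.7, SD, n = 3) stood far above *Plau* (3992 ± 494), *Plaur* (1327 ± 166), *Thbd* (1012 ± 68.3), *Tfpi* (151 ± 14.7) and *F3* (85.2 ± 19.6), and *F10* (9.24 ± 7.68), *F5* (7.99 ± 0.949) and *F7* (3.59 ± 3.09) were the lowest, *F10* lying within the sum of the SDs of *F5*. *F10* was thus the first of the 9 in MDMs, the fifth in gal-3+ macrophages and the seventh in SkMRMs.

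**Figure D4:**
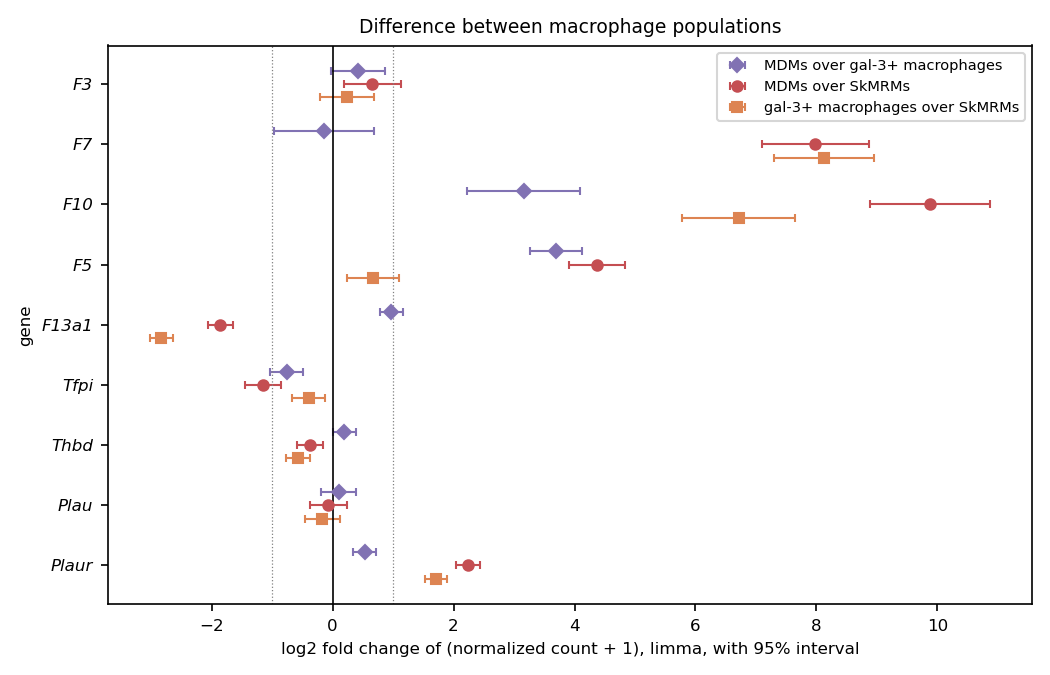
Log2 fold change of each gene in the 3 comparisons (limma on log2(normalized count + 1), with the 95% interval as a bar), the dotted lines marking a fold of 2. *F7* and *F10* lay above 6 in both comparisons with SkMRMs, *F5* lay near 4 in both comparisons of MDMs, *F13a1* lay at -2.83 and -1.86 over SkMRMs, and the 3 *Plau* intervals cross 0.

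Among the other genes of these pathways, changes went in both directions, and the differences given for them are log2 fold changes from the same fit. Of 63 listed, 42 had a row and 21 were not analysed here, among them prothrombin (*F2*), the fibrinogen chains and plasminogen (*Plg*). In MDMs over SkMRMs 12 of the 42 (28.6%) rose and 8 (19.0%) fell, where 8.81% of all genes rose and 18.0% fell, so that the share that fell was near that of all genes. The median log2 fold change of the 42 was 0.33, and that of all genes -0.17. In gal-3+ macrophages over SkMRMs 11 rose (26.2%) and 7 fell (16.7%, and 4 genes without the SkMRM library WT1), where 5.34% of all genes rose and 11.9% fell, with a median of 0.31 against -0.11 over all genes. In MDMs over gal-3+ macrophages 3 rose (7.14%) and 2 fell (4.76%, and 1 gene without the gal-3+ library mdx5 or the MDM library mdx5), where 3.32% of all genes rose and 8.19% fell, with a median of -0.04 against 0.03 over all genes.

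Of 3 other clotting factors with a row, *F9* rose, *F8* fell and *Vwf*, the carrier of factor VIII, passed no test. Factor IX (*F9*), a vitamin K-dependent protease like factors VII and X, was low throughout, with 14.2, 20.4 and 23.5 normalized counts in MDMs, 32.7, 40.0, 38 and 48.7 in gal-3+ macrophages and 0, 1.55 and 1.08 in SkMRMs, the last being 0, 2 and 3 reads. It rose by 4.53 (SE 0.64, adjusted p = 1.8e-05) in gal-3+ macrophages over SkMRMs and by 3.52 (SE 0.68, adjusted p = 3.1e-04) in MDMs over SkMRMs, folds that depend on the pseudocount. Factor VIII (*F8*), the cofactor of factor IXa, had 4.7 to 20.6 normalized counts in MDMs, 16.6 to 35 in gal-3+ macrophages and 90.1 to 327 in SkMRMs, and fell over SkMRMs in MDMs at -3.88 (SE 0.63, adjusted p = 5.2e-05) and in gal-3+ macrophages at -2.61 (SE 0.59, adjusted p = 0.0015). The fall of *F8* in gal-3+ macrophages missed the threshold without the SkMRM library WT1 (adjusted p = 0.022), and the gene overlaps 3 others. *Vwf*, which endothelial cells make, had 2571 to 2749 in MDMs, 1839.8 to 2382 in gal-3+ macrophages and 775 to 2818 in SkMRMs.

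Of 7 other anticoagulants with a row, protein S (*Pros1*), the cofactor of activated protein C and of *Tfpi*, fell in all 3 comparisons. It had 1135, 1042 and 751 normalized counts in MDMs, 1971, 2197, 2437 and 2054 in gal-3+ macrophages and 5656, 6139 and 5763 in SkMRMs, with log2 fold changes of -2.60 (SE 0.13, adjusted p = 2.0e-11) in MDMs over SkMRMs, -1.44 (SE 0.12, adjusted p = 3.0e-08) in gal-3+ macrophages over SkMRMs and -1.17 (SE 0.12, adjusted p = 9.9e-07) in MDMs over gal-3+ macrophages, the last under a fold of 2 without the MDM library mdx5 (-0.99). Its order was that of *Tfpi*, with MDMs the lowest. Protein Z (*Proz*), the neighbor of *F10*, was low, at 136, 177 and 123 in MDMs, 0, 28, 26.7 and 9.75 in gal-3+ macrophages and 3.5, 2.33 and 3.61 in SkMRMs. It rose by 5.14 (SE 0.99, adjusted p = 2.9e-04) in MDMs over SkMRMs and by 3.91 (SE 0.93, adjusted p = 0.003) in MDMs over gal-3+ macrophages. The second call was lost without any 1 of the MDM libraries (adjusted p = 0.012 to 0.017), with the 2 populations alone (0.011) and with a constant prior variance (0.022), and the value was 2.82 without the gal-3+ library mdx1. In gal-3+ macrophages over SkMRMs *Proz* differed by 1.23 (SE 0.93, adjusted p = 0.28) and passed only without the gal-3+ library mdx1 (2.32) or with DESeq2 (2.32), and the gal-3+ library mdx1 had 0 reads, a count that allows up to 2.33 normalized counts (3 reads). C1 inhibitor (*Serping1*) fell in MDMs and in gal-3+ macrophages over SkMRMs, at -1.47 and -1.19, the second under a fold of 2 without the gal-3+ library mdx4 (-0.96). In the SkMRM libraries WT1 to WT3 it had 1316, 1109 and 946 normalized counts, in the order of their fibroblast marker sums, whose part in its fall was not tested. Protease nexin 1 (*Serpine2*), which inhibits thrombin, rose in gal-3+ macrophages over SkMRMs by 1.47 (SE 0.23, adjusted p = 5.5e-05) and fell in MDMs over gal-3+ macrophages at -1.12 (SE 0.23, adjusted p = 0.001), the second under a fold of 2 without the gal-3+ library mdx5 (-0.99). The endothelial protein C receptor (*Procr*) had 341 ± 40.8 in MDMs, 289.5 ± 33.4 in gal-3+ macrophages and 353 ± 148 in SkMRMs (SD) and passed no test.

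In the plasminogen system, 4 of 11 genes with a row rose and 2 fell in MDMs over SkMRMs, and 5 rose and 2 fell in gal-3+ macrophages over SkMRMs. Of all genes, 8.81% rose and 18.0% fell in MDMs over SkMRMs, and 5.34% rose and 11.9% fell in gal-3+ macrophages over SkMRMs, so that 2 of 11 is near the share of all genes that fell in MDMs. *Serpinb2*, an inhibitor of urokinase, had 800.1, 1542 and 1917 in MDMs, 223, 263, 221 and 378 in gal-3+ macrophages and 118, 102 and 137 in SkMRMs. It rose by 3.49 (SE 0.28, adjusted p = 1.2e-08) in MDMs over SkMRMs, by 2.33 (SE 0.26, adjusted p = 2.7e-06) in MDMs over gal-3+ macrophages, and by 1.16 (SE 0.26, adjusted p = 0.0015) in gal-3+ macrophages over SkMRMs, the last lost without the gal-3+ library mdx5 (0.99) and with a constant prior variance. The gene overlaps *Serpinb10* on the same strand.

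Tissue plasminogen activator (*Plat*) had 197 ± 52.6 in MDMs, 231 ± 55 in gal-3+ macrophages and 234 ± 95.8 in SkMRMs (SD) and passed no test. Of genes whose products bind plasminogen, annexin A2 (*Anxa2*) had 27211 ± 2843 in MDMs, 21051 ± 998 in gal-3+ macrophages and 7657 ± 304 in SkMRMs, and rose over SkMRMs by 1.82 in MDMs and 1.46 in gal-3+ macrophages. Enolase 1 (*Eno1*), a glycolytic enzyme that also binds plasminogen on the cell surface, had 21236 ± 2474, 11663 ± 1256 and 5097 ± 456 in MDMs, gal-3+ macrophages and SkMRMs, and rose over SkMRMs by 2.06 in MDMs and 1.19 in gal-3+ macrophages. *S100a10*, the partner of annexin A2, had 14284 ± 1556 in MDMs, 6817 ± 315 in gal-3+ macrophages and 9989 ± 237 in SkMRMs. Unlike *Anxa2* it was lowest in gal-3+ macrophages. It rose in MDMs over gal-3+ macrophages by 1.06 (SE 0.077, adjusted p = 2.2e-08) and did not pass in the comparisons with SkMRMs. *Lrp1*, which clears complexes of protease and inhibitor, rose over SkMRMs by 1.20 in MDMs and 1.19 in gal-3+ macrophages. *Mrc2*, a collagen receptor that associates with the urokinase receptor, fell over SkMRMs, at -2.25 in MDMs and -1.87 in gal-3+ macrophages. In the SkMRM libraries WT1 to WT3, whose fibroblast marker sums were 1376730, 805387 and 575676, *Mrc2* had 2335, 1794 and 1441 normalized counts, and the part of fibroblasts in its fall was not tested. *Serpinf2*, the inhibitor of plasmin, was low, at 0 to 39.5 in MDMs, 2.92 to 12.4 in gal-3+ macrophages and 59 to 146 in SkMRMs, and its fall over SkMRMs was lost without any 1 of the SkMRM libraries (adjusted p = 0.011 to 0.036) and under several other alternatives.

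Receptors and helper enzymes made up the rest. Of 4 protease-activated receptors, the thrombin receptor *F2r* fell in MDMs over SkMRMs at -1.56 (SE 0.23, adjusted p = 2.1e-05) and in gal-3+ macrophages over SkMRMs at -1.02 (SE 0.22, adjusted p = 9.7e-04), the second lost without the SkMRM library WT1, the SkMRM library WT2 or the gal-3+ library mdx3, and with TMM scaling or edgeR. *F2rl3* had 0, 0 and 0 normalized counts in MDMs, where 0 reads allow up to 4.74, 27.2, 12, 1.03 and 12.7 in gal-3+ macrophages and 19.8, 11.6 and 6.5 in SkMRMs. Its fall in MDMs over SkMRMs (adjusted p = 0.0054) was lost without any 1 of the MDM libraries, without the SkMRM library WT1 or WT2, and with a pseudocount of 5 (adjusted p = 0.012 to 0.029). In MDMs over gal-3+ macrophages it passed without the gal-3+ library mdx4 (adjusted p = 0.0016), with a pseudocount of 0.5, TMM scaling or DESeq2, and not otherwise. Of 5 genes of factor secretion and the vitamin K cycle, *Furin*, the protease that trims the propeptides of clotting factors, rose by 1.04 (SE 0.079, adjusted p = 6.2e-09) in MDMs over SkMRMs, and *Ggcx*, the carboxylase that the vitamin K-dependent factors need, fell at -1.16 (SE 0.21, adjusted p = 1.4e-04). *Furin* was under a fold of 2 without the SkMRM library WT3 (0.98) or the MDM library mdx5 (0.99) and with upper-quartile scaling (0.89), and *Ggcx* without the MDM library mdx1 (-0.89). The scramblase *Plscr1* rose by 1.87 in MDMs and 2.08 in gal-3+ macrophages over SkMRMs. Of the fibrinogen receptor Mac-1, *Itgam* and *Itgb2* rose in MDMs over SkMRMs by 1.59 and 1.60, and *Itgb2* rose in gal-3+ macrophages by 1.15. *Itgav*, an integrin subunit, rose over SkMRMs by 2.46 in MDMs and 2.48 in gal-3+ macrophages.

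The transglutaminases showed opposite directions. Tissue transglutaminase (*Tgm2*), a relative of factor XIII A that cross-links matrix proteins, had 17719.7, 20825 and 24977 normalized counts in MDMs, 16573, 17877, 15733 and 17795 in gal-3+ macrophages and 1339, 884 and 499.9 in SkMRMs. It rose by 4.64 (SE 0.23, adjusted p = 2.0e-11) in MDMs and by 4.34 (SE 0.21, adjusted p = 3.0e-11) in gal-3+ macrophages over SkMRMs, whereas *F13a1* fell in both. *Tgm1* fell in gal-3+ macrophages over SkMRMs at -1.06 (SE 0.22, adjusted p = 6.8e-04), under a fold of 2 without the gal-3+ library mdx1 (-0.97), and had -0.63 in MDMs over SkMRMs, which did not pass. *Tgm2* shares part of its position with 2 genes on the other strand.

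**Figure D5:**
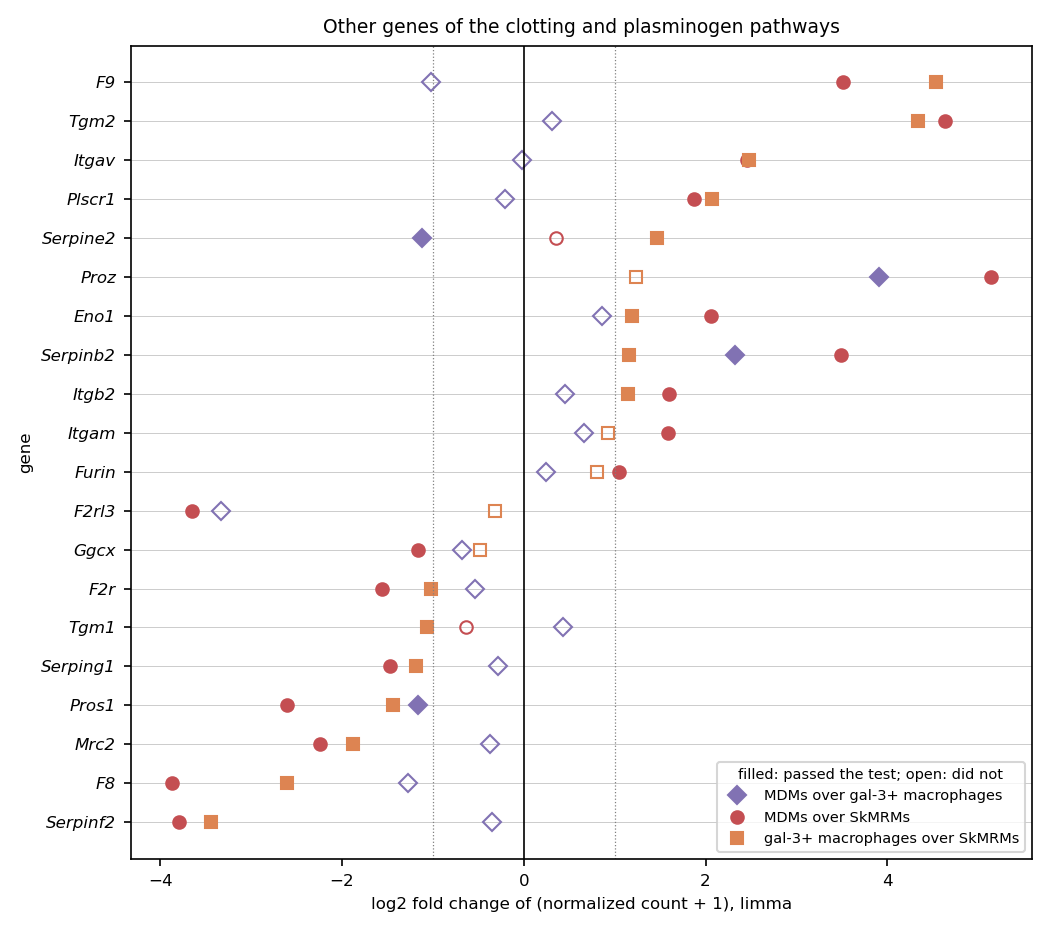
Log2 fold change in the 3 comparisons of the pathway genes outside the 9 with the largest changes per list (up to 4 each, among those that passed), filled where the test was passed and open where it was not, the dotted lines marking a fold of 2. *F9*, *Tgm2*, *Itgav* and *Plscr1* lay above 1 and *Pros1*, *Mrc2* and *F8* below -1 in both comparisons with SkMRMs, and *Proz* and *Serpinb2* were the filled points above 1 plotted for MDMs over gal-3+ macrophages.

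The genes whose pattern over the 10 libraries was most like that of each member are given by Pearson's r of log2(normalized count + 1), among 10870 genes with a mean of at least 100. The libraries fall into 3 populations, so that points of 1 population are not independent, and r is given as a description. Each r was picked as among the highest of all these candidates, so that a high value can arise for a gene that passed no test. It compares the shape of a pattern and not the size of a change. *F5* was most like *Vcan* (r = 0.996), which had 27418, 1518 and 864 normalized counts in MDMs, gal-3+ macrophages and SkMRMs, followed by *Ppp2r5a* (r = 0.994) and *AI662270* (r = 0.993). *F7* was most like *Hgf* (r = 0.997), which encodes a growth factor in the same protein family as plasminogen, followed by *Amz1* (r = 0.996). *F10* was most like *Tbc1d1* (r = 0.997), *Actr3* (r = 0.996) and *Trpm2* (r = 0.996). The span of *Actr3* was far smaller, with means of 39271 in MDMs, 29782 in gal-3+ macrophages and 16513 in SkMRMs, against 17962, 2013 and 25.2 for *F10*. *Plaur* was most like *Xylt1* (r = 0.996), *Olr1* (r = 0.994) and *Furin* (r = 0.994). *F13a1* was most like *Ifi203* (r = 0.995), *Foxn3* (r = 0.992) and *Sema4a* (r = 0.991), and *Tfpi* like *Ulbp1* (r = 0.99), *Brca2* (r = 0.989) and *Lix1l* (r = 0.988). *Thbd* was most like *Dnah17* (r = 0.967), *Adam30* (r = 0.963) and *Psg16* (r = 0.962), and *F3* like *Gpaa1* (r = 0.953), *Hdlbp* (r = 0.93) and *Abt1* (r = 0.929). *Plau*, which differed least between the populations, had the lowest best likeness of the 9, with *Ier5* (r = 0.892), *Sgsm3* (r = 0.855) and *2310022B05Rik* (r = 0.842).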

How the data were processed

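RNA of 10 sorted macrophage libraries was sequenced in paired ends by the authors from 2 ng of total RNA each (SMARTer Pico kit, stranded). According to the paper and the submitters' processing notes, reads were mapped to mm10 with TopHat 2.0.14 and GENCODE, counted with HTSeq 1.99.2 and normalized with DESeq2 1.28.1. The deposited signal is read counts per gene divided by 1 size factor per library, made by the authors. Dividing by the step between values gave whole reads (within 0.001) for 100% of values. Another 18 deposited columns hold the authors' own comparisons (means, log2 fold changes with errors, test scores and p-values) and were not used. A spreadsheet had turned 22 gene names into dates. Column names give the population and a number that is not the replicate number of the sample titles, so columns were matched to populations only. Depth was 22395027 to 75907638 reads, and SDs and intervals between libraries include counting error.

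Log2(normalized count + 1) of all genes was modelled by limma 3.58.1 under R 4.3.3 (10 libraries, 7 residual degrees of freedom, trended variance) with Benjamini-Hochberg adjustment over 17001 genes. The labels call libraries biological replicates, but do not say which come from the same mouse. Ratios of genes were compared by two-sided exact permutation tests, adjusted over 18. The members and lists were chosen with earlier results of these data known. Named are the 9 members, up to 4 genes with the largest change per pathway list among those that passed, genes needed to place a member (*Plat*, *F2r*, *Pros1*, *Procr*), and the 3 most alike genes per member. Of the genes this rule names, 2 are not reported here. *Anxa2*, *Lrp1*, *S100a10*, *Vwf*, the single marker and immediate early genes, and the genes of the closing observations, were named after their values were seen. Gene positions are of GENCODE M21 on mm10, and promoters of RefSeq on GRCm38.p6. As alternatives, the pseudocount was set to 0.5 or 5, genes reaching 50 in fewer than 3 libraries were dropped, reads were scaled by TMM or upper quartile, and recovered reads were tested in DESeq2 1.42.0 or in edgeR 4.0.16. Further alternatives were the 2 populations alone, a replicate block, constant variance and each library left out. The fits were tested on simulated data.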

Additional observations from a re-analysis of the deposited data

Results flagged for a closer look

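Of 38 groups of 4 libraries in which the distance of the highest or lowest library was checked, 1 stood out, and chance alone gives about 1 in 20. *Thbd* in the gal-3+ library mdx3 had 3018 normalized counts, against 2379.8 to 2396 in the other 3, a gap of 0.975 of the whole range, where the critical value is 0.829. All alternatives that left out this library kept *Thbd* under a fold of 2 in the comparisons with SkMRMs.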

How the results depend on the processing

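The counts of the 9 genes that rose or fell stayed within 1.5 times in all 174 alternative counts, and 519 alternative log2 fold changes of members kept their side of the threshold, the 3 others being *F13a1* in MDMs over gal-3+ macrophages (1.01 to 1.04) with 1 library left out. The difference of *Plau* changed sign between alternatives without passing the test (MDMs over SkMRMs -0.22 to 0.12, MDMs over gal-3+ macrophages -0.02 to 0.29). Of the other pathway genes, 44 alternative values lost a call, 6 gained 1 and 1626 kept their side. With 1 library left out, pathway genes that rose numbered 11 to 13 in MDMs over SkMRMs, 10 to 12 in gal-3+ macrophages over SkMRMs and 2 to 3 in MDMs over gal-3+ macrophages, and those that fell numbered 6 to 9, 4 to 8 and 1 to 3. Upper-quartile scaling shifted the median gene by -0.15 in MDMs over SkMRMs and by -0.12 in gal-3+ macrophages over SkMRMs, and no member's call changed with it. None of the ratios changed direction with a pseudocount of 5 or with 1 library left out. The labels do not say which libraries share a mouse, and the numbers in the column names were not taken as pairs. Residuals of MDM and gal-3+ libraries with the same number correlated at -0.0279, 0.0102 and 0.0253. These values cover all genes, many with few reads and much counting noise, and cannot show whether 2 libraries share a mouse. A fit with that number as a replicate block used only the MDM and gal-3+ libraries mdx1, mdx4 and mdx5, which left fewer residual degrees of freedom than the main fit. In it 2 members again rose and 0 fell in MDMs over gal-3+ macrophages, with 3 and 2 pathway genes rising and falling. Of all genes 854 fell instead of 1392, and the parts of the block and of the smaller fit in this were not tested. Depth limits *F7*, *F10*, *F9*, *Proz* and *F2rl3*, where a population had few or no reads.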

Other observations

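Beside *F7*, *F10* and *Proz*, other genes of their stretch of chromosome 8 were measured. *Mcf2l* had 389 to 575 normalized counts in MDMs, 473 to 547 in gal-3+ macrophages and 191 to 409 in SkMRMs, and passed no test. *Pcid2* had 857 to 1116, 567 to 878 and 382 to 556 in MDMs, gal-3+ macrophages and SkMRMs, and rose in MDMs over SkMRMs by a log2 fold change of 1.12 (SE 0.17, adjusted p = 3.6e-05). *Cul4a* had 1864 to 1904, 1949.8 to 2213 and 1771 to 2026 in the same order, with log2 fold changes of 0.00 in MDMs over SkMRMs and 0.13 in gal-3+ macrophages over SkMRMs that did not pass. *Lamp1* had 37369 ± 603, 50566 ± 2324 and 28815 ± 2332 (SD) and stayed under a fold of 2 in the 3 comparisons.

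*Gas6*, a vitamin K-dependent relative of protein S that is a ligand of TAM receptors, had 674, 521 and 665 normalized counts in MDMs, 4828, 3861, 5425 and 4719 in gal-3+ macrophages and 26556, 26154 and 24382 in SkMRMs. It fell in all 3 comparisons, with log2 fold changes of -5.38 (SE 0.12, adjusted p = 1.0e-15) in MDMs over SkMRMs, -2.46 (SE 0.11, adjusted p = 8.0e-12) in gal-3+ macrophages over SkMRMs and -2.92 (SE 0.11, adjusted p = 6.1e-12) in MDMs over gal-3+ macrophages. Among AP-1 subunits, *Fosl2* rose over SkMRMs by 1.79 (SE 0.097, adjusted p = 8.1e-11) in MDMs and 1.56 (SE 0.091, adjusted p = 3.1e-10) in gal-3+ macrophages, whereas *Jun* fell, at -2.35 (SE 0.08, adjusted p = 1.9e-13) in MDMs and -1.51 (SE 0.074, adjusted p = 3.5e-11) in gal-3+ macrophages. No other listed subunit rose over SkMRMs. *Fosb*, *Jund* and *Atf3* fell in MDMs, *Fosl1* and *Atf3* fell in gal-3+ macrophages, and *Fos* and *Junb* passed neither comparison.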
